A study of Mus musculus with 54 samples.

Results

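The 9 genes described here, P2ry12, P2ry13, Gpr34, Cx3cr1, Siglech, Fcrl2, Tmem119, Olfml3 and Sparc, are used as markers of homeostatic microglia, and were taken by symbol from count tables of 33280 genes. Fcrl2 is the tables' symbol for the gene that RefSeq names Fcrls. Of the 9 genes, 7 encode proteins of the cell surface, whereas Olfml3 and Sparc encode secreted proteins. All 9 had counts in each of 54 bulk RNA-seq libraries, the lowest being 4 counts, and all 9 passed the low-count filter in each fit.

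The libraries were made from microglia (MG) and from subdural macrophages associated with the CNS (sdCAMs, which line the leptomeninges and perivascular spaces), sorted from mouse brains without choroid plexuses, in 18 groups of 3 mice. Wild type (WT) mice and Ccr2 KO mice, written Ccr2-/-, contributed both populations under 3 conditions, namely untreated with a PBS injection, vehicle (CTL) with lipopolysaccharide (LPS), and BLZ945 with LPS. BLZ945 inhibits the CSF1 receptor and depletes these macrophages, which then repopulate, and LPS is a bacterial endotoxin. Reporter mice of genotype Ccr2CreERT2/CreERT2:R26tdT/tdT, written Ccr2Cre, were all treated with BLZ945 and tamoxifen and received PBS or LPS, and contributed MG, tdT+ sdCAMs and tdT- sdCAMs. In these mice the Ccr2 promoter drives the tamoxifen-dependent Cre, so tdT labels the progeny of cells in which Ccr2 was active at the time of tamoxifen. No agent or allele was common to all groups. Cells were taken 12 h after the injection and 8 weeks after treatment, and MG and sdCAMs of a group came from the same mice. The mice that received PBS in the WT and Ccr2-/- groups had no vehicle, so that vehicle and LPS cannot be told apart in these comparisons, and the age of the mice was not given in the labels. WT and Ccr2-/- libraries carried batch label 1 and reporter libraries batch label 2, and all comparisons were made within a genotype.

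Microglia populate the brain parenchyma and carry receptors with which they sense their surroundings. P2ry12 and P2ry13 encode G protein-coupled receptors for adenine nucleotides, and P2RY12 guides microglial processes towards sites of injury. Gpr34 encodes a receptor for lysophosphatidylserine, and Cx3cr1 the receptor for fractalkine, a chemokine of neurons. Siglech encodes a sialic acid-binding lectin and Fcrl2 a receptor-like protein of the immunoglobulin superfamily related to Fc receptors. Tmem119 encodes a transmembrane protein that is widely used to separate microglia from other macrophages. Olfml3 and Sparc encode secreted proteins of the extracellular matrix. Transcripts of this programme are known to fall in microglia during inflammation, and macrophages at the borders of the brain express part of it.

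The 250 bases before the transcription start are shown for P2ry12 and P2ry13, neighbouring genes that fell by different amounts in MG, for Fcrl2, whose level after PBS differed least between Ccr2-/- sdCAMs and MG, and for Sparc, which changed least after LPS in WT and Ccr2-/- MG. They were taken from RefSeq promoters of mouse build GRCm38.p6, which held 7 of the 9 genes (Tmem119 and Gpr34 had no entry). Sequences read 5′ to 3′ on the strand of the gene, and capitals mark the PU.1 motif GAGGAAG.
P2ry12, chr3:59262986-59263235, - strand: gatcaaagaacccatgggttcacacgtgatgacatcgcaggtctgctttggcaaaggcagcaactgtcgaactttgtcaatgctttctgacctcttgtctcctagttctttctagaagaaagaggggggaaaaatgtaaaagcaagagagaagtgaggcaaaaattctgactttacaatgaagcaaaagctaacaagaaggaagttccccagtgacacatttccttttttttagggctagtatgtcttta
P2ry13, chr3:59210883-59211132, - strand: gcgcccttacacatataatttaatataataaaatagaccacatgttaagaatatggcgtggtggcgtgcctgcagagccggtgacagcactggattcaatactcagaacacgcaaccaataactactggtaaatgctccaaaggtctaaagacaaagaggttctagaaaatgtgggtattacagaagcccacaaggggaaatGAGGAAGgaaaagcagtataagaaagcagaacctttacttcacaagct
Fcrl2 (Fcrls), chr3:87263525-87263774, - strand: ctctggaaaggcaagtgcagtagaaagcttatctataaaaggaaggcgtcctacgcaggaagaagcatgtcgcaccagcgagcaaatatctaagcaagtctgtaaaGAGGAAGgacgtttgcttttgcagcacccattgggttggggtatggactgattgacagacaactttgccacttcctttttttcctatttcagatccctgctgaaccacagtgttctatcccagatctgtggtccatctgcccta
Sparc, chr11:55420081-55420330, - strand: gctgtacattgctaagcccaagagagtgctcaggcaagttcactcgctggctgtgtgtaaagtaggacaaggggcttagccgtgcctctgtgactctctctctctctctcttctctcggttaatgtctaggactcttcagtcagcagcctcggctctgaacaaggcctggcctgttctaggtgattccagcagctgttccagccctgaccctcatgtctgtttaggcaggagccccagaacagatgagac
On both strands, GAGGAAG was present in 2 of the 7 sequences, 48 to 42 bases before the start of P2ry13 and 144 to 138 bases before that of Fcrl2, and in 10.6% of 32851 promoters of the same length. The interferon response motif GAAANNGAA (7.13% of all promoters), the NF-kB motif GGANTTTCC (1.07%) and the AP-1 motif TGANTCA (6.75%) were in 0 of the 7. These are matches of letters within the window and not binding sites.

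Total counts were 1705930 to 11330781 per library, the lowest in sdCAMs. Levels are given as CPM, counts scaled to a common library size after TMM normalization over all 54 libraries, with values of single libraries in order of mouse number, and n = 3 mice per group throughout. Ccr2 lay at 17.1 to 51 CPM in WT and 2.33 to 5.2 CPM in Ccr2-/- sdCAMs after PBS. The summed level of 9 sdCAM markers (Mrc1, Cd163, Lyve1, Pf4, Ms4a7, Cbr2, F13a1, Stab1 and Folr2) was 11206 to 17913 CPM in WT sdCAMs and 479.5 to 503 CPM in WT MG after PBS. That of 5 microglial genes outside the 9 (Sall1, Slc2a5, Crybb1, Ltc4s and Adgrg1) was 2859 to 3172 CPM in WT MG, 1061 to 1684 CPM in WT sdCAMs and 295 to 441 CPM in Ccr2-/- sdCAMs after PBS. Sall1, which encodes a transcription factor of microglia, lay at 667 to 787 CPM in WT MG, 164 to 296 CPM in WT sdCAMs, 16.3 to 35.8 CPM in Ccr2-/- sdCAMs and 0.564 to 5.82 CPM in tdT+ sdCAMs. As a share of the level in MG of the same mouse after PBS, Sall1, Slc2a5 and Adgrg1 lay at 24.6 to 37.6%, 11.3 to 23.6% and 12.3 to 27.6% in WT sdCAMs and at 2.86 to 5.73%, 4.21 to 7.31% and 3.13 to 9.65% in Ccr2-/- sdCAMs. Crybb1 (68.2 to 88.9% and 16.6 to 23.3%) and Ltc4s (113 to 1107% and 96.8 to 105%) were higher in both. Whether this signal came from MG in the sort was not tested. Of the reporter libraries 3 stood apart from their groups. They were MG of mouse 175 after PBS, MG of mouse 1 after LPS, and tdT+ sdCAMs of mouse 5 after LPS, and results that rest on them are given with and without them.

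In MG after PBS all 9 genes were abundant, and the mice of a group lay close together in WT and Ccr2-/-. P2ry12 lay at 7742, 8171 and 8718 CPM in WT and 13346, 12814 and 12623 CPM in Ccr2-/- MG. Cx3cr1 lay at 5483, 5522 and 5938 CPM in WT and 6194, 6330.5 and 6218 CPM in Ccr2-/- MG. Per kilobase of exon, P2ry12 had the highest level of the 9 in WT MG at 3225 ± 192 CPM per kb (SD), followed by Tmem119 at 1850.5 ± 31.2 and Gpr34 at 1344 ± 43.5 CPM per kb. The per-kilobase level was 1254 ± 56 for Cx3cr1, 1109 ± 141 for Fcrl2, 934 ± 34.1 for P2ry13, 821 ± 70 for Sparc, 486 ± 19.5 for Siglech and 358 ± 30.8 for Olfml3. Exon length was the union of all annotated exons, 6161 bases for Olfml3 and 2090 to 4505 bases for the others. The order depends on these lengths, which may exceed the transcripts in use. The ranges of the mice overlapped between Gpr34 and Cx3cr1, between Fcrl2 and P2ry13 and between P2ry13 and Sparc, so that the order within these pairs is not resolved. P2ry12 was again first in Ccr2-/- MG (5078 ± 147 CPM per kb), ahead of Gpr34 (2375 ± 56.8) and Tmem119 (2261 ± 161), whose ranges overlapped.

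Over the 18 groups, the highest mean level of P2ry12, P2ry13, Gpr34, Siglech and Cx3cr1 was in Ccr2-/- MG after PBS, that of Tmem119, Olfml3 and Sparc in reporter MG after PBS, and that of Fcrl2 in Ccr2-/- sdCAMs after PBS. Mouse 175 was the highest reporter mouse for Tmem119, Olfml3 and Sparc, and the reporter and Ccr2-/- ranges of MG overlapped for Tmem119, Sparc, Cx3cr1 and Siglech. Fcrl2 lay at 4291, 4599 and 4476 CPM in Ccr2-/- sdCAMs and 3896, 4224 and 4456 CPM in MG of the same mice, which overlapped, as did tdT+ sdCAMs with a highest mouse at 4376 CPM. Levels were set side by side across genotypes without a test, since genotype, count table and, for reporter mice, batch go together. Group means of MG were above those of sdCAMs of the same genotype and treatment for 8 of the genes, and Fcrl2 was the exception after PBS in Ccr2-/- and reporter mice.

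**Figure D1:**
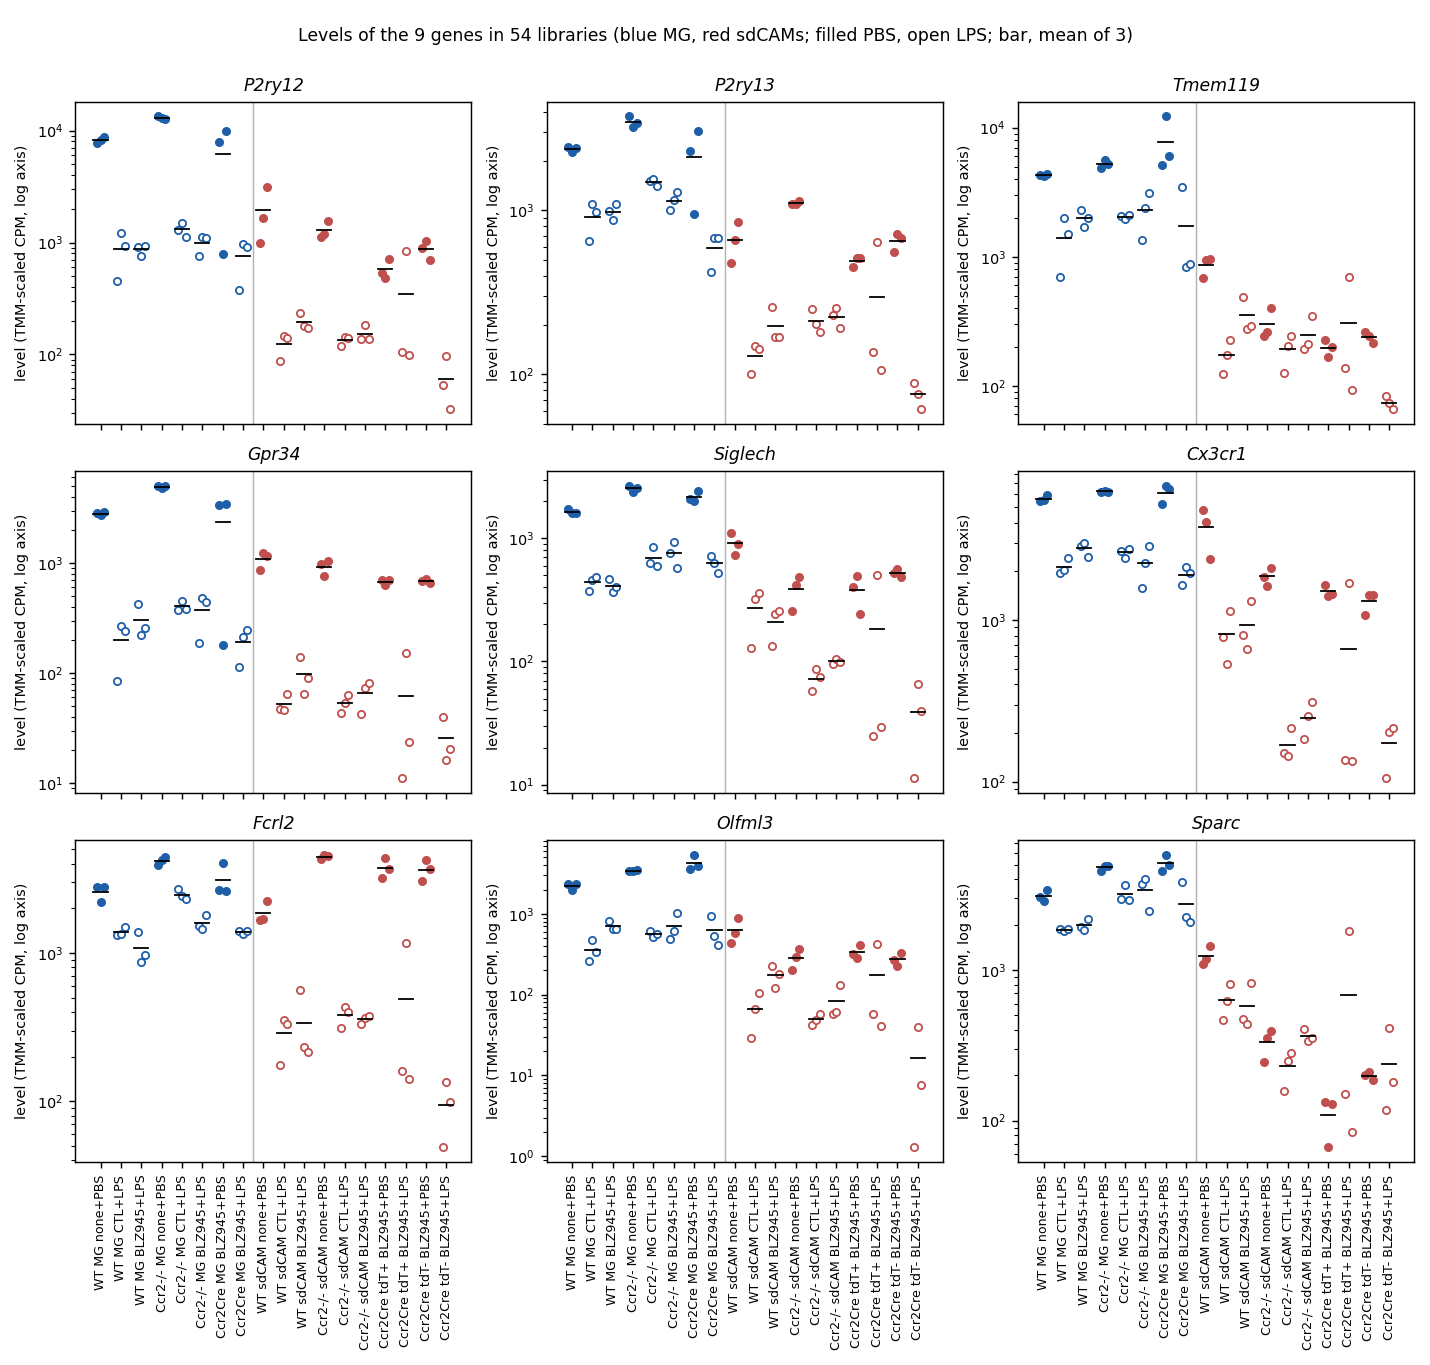
Level of each of the 9 genes in all 54 libraries, as TMM-scaled CPM on a log axis, with 1 point per mouse and a bar at the mean of 3. MG are blue and sdCAMs red, and PBS groups are filled and LPS groups open. LPS groups sit below PBS groups in most panels, as for P2ry12 in WT MG (457 to 1225 against 7742 to 8718 CPM), whereas Sparc changed little in WT and Ccr2-/- MG and was higher in 1 tdT+ library after LPS (1820.2 CPM), and Fcrl2 after PBS reached the level of MG in Ccr2-/- and reporter sdCAMs.

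To find how the 9 genes respond to inflammation, MG after CTL and LPS were compared with MG after PBS. In WT MG, 7 of the 9 genes were called lower (log2 fold change below -1 at an adjusted p under 0.05), where 7.65% of all 11789 genes tested were called lower. In Ccr2-/- MG, 7 of 9 were called lower, against 8.89% of 11558 genes. The genes were P2ry12, P2ry13, Gpr34, Cx3cr1, Siglech, Tmem119 and Olfml3 in both genotypes. The median log2 fold change of the 9 genes was -1.61 in WT and -1.33 in Ccr2-/- MG, and that of all genes 0.02 and 0.00. For all 9 genes the 3 mice after LPS lay below the 3 mice after PBS in both genotypes, as they did for 22.4% of all genes tested in WT and 26.6% in Ccr2-/- MG. In bulk RNA, fewer expressing cells and less RNA per cell cannot be told apart.

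Among the receptors, Gpr34 fell most. In WT MG it lay at 2828, 2711 and 2891 CPM after PBS and 85.4, 266 and 242 CPM after LPS (14.1-fold lower, log2 fold change -3.82 ± 0.39 (SE), adjusted p = 3.27e-05). Ccr2-/- MG had 4992, 4834 and 5067 CPM after PBS and 372, 456 and 385 CPM after LPS (12.1-fold lower, log2 fold change -3.60 ± 0.28 (SE), adjusted p = 5.57e-07). Every mouse after LPS was far below the lowest PBS mouse of its genotype, and mouse 1 was the lowest WT mouse. P2ry12 fell from 7742, 8171 and 8718 CPM to 457, 1225 and 937 CPM in WT MG (9.34-fold lower, log2 fold change -3.22 ± 0.29 (SE), adjusted p = 1.19e-05). Levels of P2ry12 in Ccr2-/- MG fell from 13346, 12814 and 12623 CPM to 1299, 1493 and 1130.5 CPM (9.74-fold lower, log2 fold change -3.28 ± 0.17 (SE), adjusted p = 1.42e-08). Mouse 1 was again the lowest in WT. P2ry13, the related and neighbouring gene, fell less. It lay at 2428, 2263 and 2389 CPM after PBS and 653, 1094 and 982 CPM after LPS in WT MG (log2 fold change -1.37 ± 0.18 (SE), adjusted p = 0.000203), and its change in Ccr2-/- MG was -1.19 ± 0.13. The 95% intervals of the log2 fold change in WT MG, -3.85 to -2.60 for P2ry12 and -1.75 to -0.98 for P2ry13, did not overlap.

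Cx3cr1 was lowered to a middling extent. It lay at 5483, 5522 and 5938 CPM after PBS and 1942, 2026 and 2423 CPM after LPS in WT MG (2.64-fold lower, log2 fold change -1.40 ± 0.13 (SE), adjusted p = 1.54e-05). In MG of Ccr2-/- mice it lay at 6194, 6330.5 and 6218 CPM and 2682, 2430.1 and 2760.2 CPM (2.35-fold lower, log2 fold change -1.23 ± 0.17 (SE), adjusted p = 9.97e-05). The groups were clearly apart, and the lowest WT mouse after LPS kept 1942 CPM. Siglech fell 3.74-fold in WT MG, with mice at 1604 to 1721 CPM after PBS and 374 to 483 CPM after LPS (adjusted p = 3.85e-06), and 3.62-fold in Ccr2-/- MG (adjusted p = 3.85e-06). Tmem119 fell 3.04-fold in WT MG, with mice at 4222 to 4363 CPM after PBS and 701 to 1999 CPM after LPS (adjusted p = 0.00148), and 2.52-fold in Ccr2-/- MG (adjusted p = 0.000337). The spread between WT mice after LPS was widest for Gpr34, Tmem119 and P2ry12, in each of which mouse 1 was the lowest.

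The secreted proteins differed from each other. Olfml3 fell from 2316, 1984 and 2309 CPM to 264, 479 and 334 CPM in WT MG (6.11-fold lower, log2 fold change -2.61 ± 0.20 (SE), adjusted p = 4.83e-06) and 5.96-fold in Ccr2-/- MG (adjusted p = 1.26e-06). Sparc lay at 3054, 2876 and 3398 CPM after PBS and 1866, 1814 and 1874 CPM after LPS in WT MG (log2 fold change -0.74 ± 0.12 (SE), adjusted p = 0.00068). The 3 LPS mice were nearly equal and below all PBS mice, but the difference did not reach the fold limit. The change of Sparc in Ccr2-/- MG was -0.57 ± 0.16 (adjusted p = 0.0145). Fcrl2 was likewise lower by adjusted p without reaching the fold limit, at 2784, 2210.2 and 2774 CPM after PBS and 1322, 1352 and 1493 CPM after LPS in WT MG (log2 fold change -0.89 ± 0.17 (SE), adjusted p = 0.00235) and with -0.74 ± 0.12 in Ccr2-/- MG (adjusted p = 0.000392). The 9 genes therefore spanned -3.82 to -0.74 in WT and -3.60 to -0.57 in Ccr2-/- MG.

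**Figure D2:**
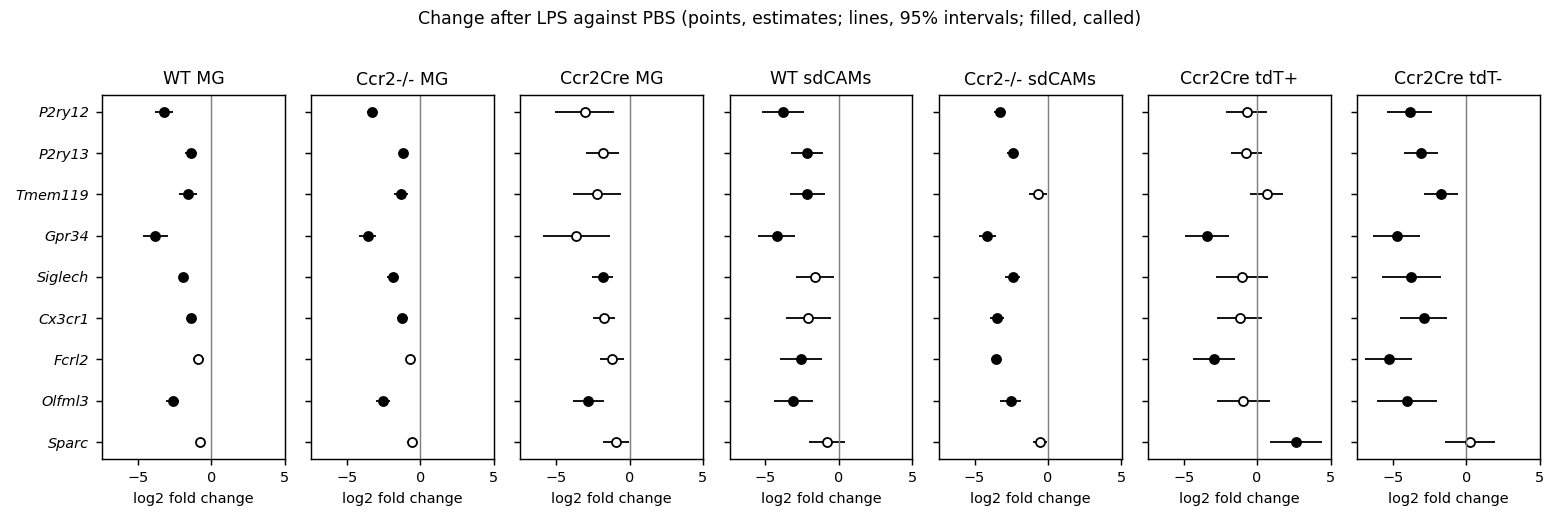
Log2 fold change of the 9 genes after LPS against PBS in 7 sorted populations, with 95% intervals as lines and filled points for called genes. Gpr34 and P2ry12 lie farthest to the left in WT and Ccr2-/- MG, Fcrl2 lies near -1 in MG and at -3.54 in Ccr2-/- sdCAMs, and intervals are widest in reporter mice.

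The same comparison was made in sdCAMs. In WT sdCAMs 6 of the 9 genes were called lower (P2ry12, P2ry13, Gpr34, Fcrl2, Tmem119 and Olfml3), against 2.62% of 10504 genes tested, and the median log2 fold change was -2.19 (-0.08 for all genes). The count was not stable. It was 1 without LPS mouse 1 or 6, 2 without LPS mouse 4 or PBS mouse 14, and 3 without PBS mouse 9 or 15. The share of all genes called lower fell in the same fits, to 0.283 to 0.962%. DESeq2 called 8 of the 9, with 15.8% of all genes called in either direction, against 6.32% in the reported fit. With the IEG mark as covariate edgeR also called 8, with 10.9% of all genes called in either direction. Cx3cr1 and Siglech were added in both. In Ccr2-/- sdCAMs 7 of 9 were called lower (all but Tmem119 and Sparc), against 10.6% of 11941 genes, with a median of -2.54 (-0.05 for all genes). This count stayed at 7 when any 1 library was left out.

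Fcrl2 was the gene whose response differed most between the populations of Ccr2-/- mice. It lay at 4291, 4599 and 4476 CPM in Ccr2-/- sdCAMs after PBS and 314, 431 and 402 CPM after LPS (11.7-fold lower, log2 fold change -3.54 ± 0.15 (SE), adjusted p = 1.13e-08). In WT sdCAMs it lay at 1665, 1683 and 2255 CPM and 176, 355 and 332 CPM (log2 fold change -2.55 ± 0.65 (SE), adjusted p = 0.042). The groups were apart in both genotypes, with the higher starting level in Ccr2-/- mice. Cx3cr1 lay at 1858, 1632 and 2098 CPM after PBS and 151, 144 and 214 CPM after LPS in Ccr2-/- sdCAMs (11-fold lower, log2 fold change -3.46 ± 0.23 (SE), adjusted p = 3e-07). In WT sdCAMs it lay at 4821, 4032 and 2375 CPM and 783, 532 and 1135 CPM and was not called in the reported fit (log2 fold change -2.07 ± 0.70 (SE), adjusted p = 0.0977). DESeq2 called it (-2.07, adjusted p = 0.00172), as did edgeR with the IEG mark as covariate (-2.31, adjusted p = 0.011). The WT groups did not overlap either, but the PBS mice spread over a wide range, with mouse 15 the lowest.

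Gpr34 fell most in WT and in Ccr2-/- sdCAMs. It lay at 872, 1226 and 1169.8 CPM after PBS and 47.2, 46.6 and 63.9 CPM after LPS in WT (log2 fold change -4.23 ± 0.58 (SE), adjusted p = 0.00435), and at 981, 768 and 1034 CPM and 43.4, 53 and 62.8 CPM in Ccr2-/- sdCAMs (log2 fold change -4.13 ± 0.26 (SE), adjusted p = 2.22e-07). All mice after LPS were at similar low levels in both genotypes. P2ry12 fell 13.8-fold in WT, with mice at 984 to 3151 CPM after PBS and 86.8 to 146 CPM after LPS (adjusted p = 0.0107), and 9.61-fold in Ccr2-/- sdCAMs (adjusted p = 1.11e-07). P2ry13 changed by -2.19 in WT (adjusted p = 0.0283) and -2.39 in Ccr2-/- sdCAMs (adjusted p = 7.23e-07) on the log2 scale. Olfml3 changed by -3.09 (adjusted p = 0.0189) and -2.54 (adjusted p = 9.57e-05). Siglech was called in Ccr2-/- sdCAMs, where it lay at 257 to 486 CPM after PBS and 57.2 to 86.4 CPM after LPS (adjusted p = 1.01e-05). Its change in WT was -1.61 ± 0.58 (adjusted p = 0.116) and was not called in the reported fit. DESeq2 called it in WT (adjusted p = 0.0227), as did edgeR with the IEG mark as covariate (adjusted p = 0.0461). A difference between genotypes was not tested.

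Tmem119 and Sparc were already low in Ccr2-/- sdCAMs after PBS, and neither passed the test there. Tmem119 lay at 245, 262 and 400.1 CPM after PBS and 126, 204 and 244 CPM after LPS (log2 fold change -0.66 ± 0.28 (SE), adjusted p = 0.1), so the groups nearly touched. Sparc lay at 247, 352 and 395 CPM and 159, 249 and 281 CPM (log2 fold change -0.53 ± 0.22 (SE), adjusted p = 0.092), and the groups overlapped. In WT sdCAMs, Tmem119 fell, with mice at 681 to 968 CPM after PBS and 124 to 226 CPM after LPS (log2 fold change -2.16 ± 0.54 (SE), adjusted p = 0.0406), and Sparc had -0.82 ± 0.57 (adjusted p = 0.4). Sums of marker genes in the sdCAM libraries moved with LPS. In WT sdCAMs the summed level of 5 neutrophil markers was 1.31 to 94.6 CPM after PBS and 360 to 3281 CPM after LPS, and Saa3, an acute-phase gene, took 23 to 35.8% of all counts after LPS. Up to 3 of the 5 neutrophil markers had no counts in a library after LPS, so that the sum there rested on part of the list. The sum of the 9 sdCAM markers was 11206 to 17913 CPM before and 12349 to 26657 CPM after, and that of 6 monocyte markers 28.9 to 52.2 and 24.5 to 101 CPM. TMM factors, by which CPM are divided, were 0.8423 to 1.184 in WT sdCAMs after PBS and 0.344 to 0.4943 after LPS. The same share of counts thus gives a higher CPM after LPS there. In Ccr2-/- sdCAMs the neutrophil sum was 1.4 to 3.14 and 77.4 to 123 CPM, the monocyte sum 2.44 to 5.2 and 104 to 194 CPM, and the sdCAM sum 20012 to 20910.3 CPM after PBS and 7646 to 8308 CPM after LPS. The part of these shifts in the results was not tested.

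In reporter mice all MG and sdCAMs came from mice treated with BLZ945, and LPS was compared with PBS. In MG, 2 of the 9 genes were called lower (Siglech and Olfml3), against 0.423% of 10882 genes tested, although all 9 log2 fold changes were negative, from -3.63 to -0.95. The count rested on single libraries. Without MG of mouse 175 it was 6 (1.52% of genes), and without both MG of mouse 175 and MG of mouse 1 it was 8 (5.59%). Without any other single library (PBS mouse 174 or 177, LPS mouse 1, 5 or 7) it was 0. In those fits 0 to 0.035% of all genes were called lower, and 7 or 8 of the 9 had an unadjusted p under 0.05.

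MG of mouse 175 were low for the purinergic receptors and Gpr34. P2ry12 lay at 7857, 789 and 9825 CPM after PBS and 379.9, 970.1 and 904 CPM after LPS (log2 fold change -3.04 ± 0.86 (SE), adjusted p = 0.14), and Gpr34 at 3396, 180.3 and 3469 CPM and 113, 214 and 244 CPM (log2 fold change -3.63 ± 0.97 (SE), adjusted p = 0.124). In MG of mouse 175 both were as low as after LPS, so that the groups overlapped. P2ry13 lay at 2312, 947 and 3050.2 CPM and 419, 682 and 680.4 CPM (log2 fold change -1.84 ± 0.47 (SE), adjusted p = 0.113), lowest among the PBS mice in mouse 175 but still above the LPS mice. The other genes were not low in that library. Tmem119 lay at 5149.7, 12208 and 6022 CPM after PBS, highest in mouse 175, and 3492, 836 and 872 CPM after LPS, where mouse 1 was the highest (log2 fold change -2.22 ± 0.71 (SE), adjusted p = 0.195). Olfml3 lay at 3575, 5396 and 3862 CPM and 931, 529 and 415 CPM (log2 fold change -2.82 ± 0.45 (SE), adjusted p = 0.0402), and Siglech at 2076, 2008 and 2415 CPM and 720.1, 635 and 527 CPM (log2 fold change -1.82 ± 0.31 (SE), adjusted p = 0.0453). Their groups did not overlap. With both libraries left out, the change was -3.21 ± 0.14 for P2ry12 (adjusted p = 0.00128), -3.88 ± 0.14 for Gpr34 (adjusted p = 0.00128) and -2.69 ± 0.12 for Tmem119 (adjusted p = 0.00128), with 2 mice left per group. Fcrl2 was then the gene not called (-0.91, adjusted p = 0.00969). Genes with under 1500 bases of exon took 14.4% of counts in mouse 175 and 17.7% in mouse 1, against 8.04 to 11.0% in the other 4 reporter MG libraries and 5.56 to 14.5% in all other 22 MG libraries, and the part of this in the result was not tested.

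**Figure D3:**
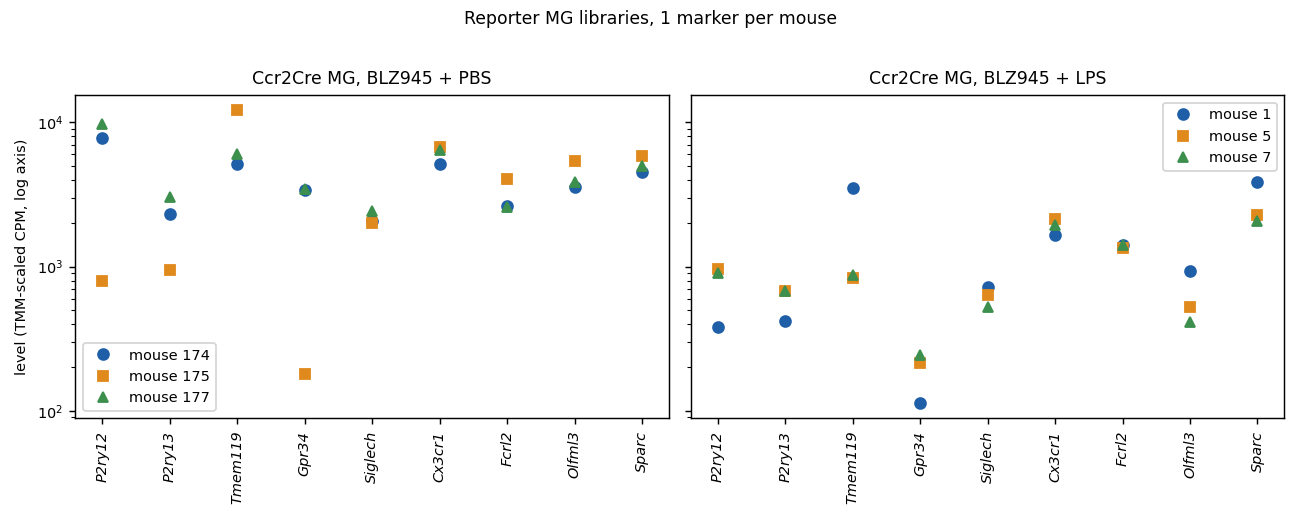
Levels of the 9 genes in the 6 reporter MG libraries, as TMM-scaled CPM on a log axis, with 1 marker per mouse. Mouse 175 after PBS is low for P2ry12 (789 CPM), P2ry13 (947 CPM) and Gpr34 (180.3 CPM) and high for Tmem119 (12208 CPM), and mouse 1 after LPS shows the same pattern among LPS mice.

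In tdT- sdCAMs, 8 of the 9 genes were called lower after LPS, against 12% of 12708 genes tested. Fcrl2 fell most, from 3039, 4242 and 3657 CPM to 48.9, 134 and 99.6 CPM (38.8-fold lower, log2 fold change -5.28 ± 0.75 (SE), adjusted p = 0.000103). Gpr34 fell from 685, 710.3 and 654 CPM to 40.2, 16 and 20.4 CPM (log2 fold change -4.75 ± 0.75 (SE), adjusted p = 0.000275), and P2ry12 from 902, 1035 and 701 CPM to 53.7, 96.2 and 32.5 CPM (log2 fold change -3.85 ± 0.72 (SE), adjusted p = 0.00096). For these genes no mouse after LPS came near the PBS mice. The others called were P2ry13 (-3.12), Cx3cr1 (-2.91), Siglech (-3.76), Olfml3 (-4.05) and Tmem119 (-1.70), with adjusted p of 0.000555 to 0.0308. Tmem119 was not called without any 1 of 5 libraries (LPS mouse 1, 5 or 7, PBS mouse 174 or 175, adjusted p = 0.0559 to 0.0768). Sparc lay at 202, 210.1 and 186 CPM and 118, 411 and 181 CPM with overlapping groups (log2 fold change 0.24 ± 0.80 (SE), adjusted p = 0.847). The summed level of the neutrophil markers was 0 to 4.32 CPM after PBS and 598 to 2359 CPM after LPS, and that of the sdCAM markers 14880 to 17955 and 6577 to 8780 CPM. After LPS, up to 3 of the 5 neutrophil markers had no counts in a library. Saa3 took 14.5 to 28.3% of counts after LPS, and genes with under 1500 bases of exon 10.6 to 12.9% after PBS and 21.8 to 25.3% after LPS. The part of these shifts in the result was not tested.

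In tdT+ sdCAMs, 2 of the 9 genes were called lower (Gpr34 and Fcrl2), against 5.82% of 12708 genes, and Sparc was called higher, against 7.54% of genes. Both counts changed without mouse 5. Fcrl2 lay at 3189, 4376 and 3704 CPM after PBS and 161, 1175 and 141 CPM after LPS (log2 fold change -2.93 ± 0.67 (SE), adjusted p = 0.00948), Cx3cr1 at 1658, 1414 and 1449.9 CPM and 137, 1702 and 134 CPM (log2 fold change -1.19 ± 0.71 (SE), adjusted p = 0.294), and Sparc at 132, 66.4 and 128 CPM and 151, 1820.2 and 84.5 CPM (log2 fold change 2.66 ± 0.84 (SE), adjusted p = 0.0484). Mouse 5 was the highest of the LPS mice for all 9 genes, and for Sparc it stood far above the PBS mice. The library also stood apart in marker genes. Its sdCAM marker sum was 1362 CPM, against 6702 and 7828 CPM in mice 1 and 7, and its microglial sum 314 CPM, against 13.9 and 31.1 CPM. Without it, 7 of the 9 genes were called lower (5.91% of all genes), with -4.66 ± 0.44 for Fcrl2 (adjusted p = 1.93e-05) and -5.28 ± 0.50 for Gpr34 (adjusted p = 1.73e-05). Sparc then had 0.09 ± 0.47 (adjusted p = 0.925) and Tmem119 -0.79 ± 0.30 (adjusted p = 0.103). For a pair of LPS libraries, mouse 1 tdT- and mouse 7 tdT+, the column names carried each other's sequencing index. Library number, mouse and population in these names matched the samples. As assigned, Saa3 took 14.5% of counts in the former, against 28.3 and 17.8% in the other tdT- LPS libraries. It took 2.74% in the latter, against 2.14 and 0.68% in the other tdT+ LPS libraries. Which assignment holds was not tested. With these columns exchanged, 6 genes were called lower in tdT- (5.36% of all genes) and 2 in tdT+ sdCAMs (3.22%). Sparc was no longer called higher in tdT+ sdCAMs (adjusted p = 0.0764), nor without PBS mouse 174, 175 or 177 (adjusted p = 0.103 to 0.146).

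Whether cells of mice treated with BLZ945 differed in these genes was asked after LPS, by comparing BLZ945 with CTL. None of the 9 genes was called by edgeR in any of the 4 comparisons, where the share of all genes called was 0.0763% in WT MG, 0.0173% in Ccr2-/- MG, 0% in WT sdCAMs and 0% in Ccr2-/- sdCAMs. In WT sdCAMs the share rested on 1 library, since without BLZ945 mouse 12 it was 6.97% of all genes, with 0 of the 9 called. DESeq2 called 0 of the 9 as well, against 0.105 to 0.528% of all genes. An unadjusted p under 0.05 was reached by 2 genes in WT MG (Olfml3 and Cx3cr1), 3 in Ccr2-/- MG (Fcrl2, P2ry12 and P2ry13), 1 in WT sdCAMs (Olfml3) and 3 in Ccr2-/- sdCAMs (Cx3cr1, Olfml3 and Sparc), while 6.58 to 8.36% of all genes did so. These comparisons share their CTL libraries with those of LPS against PBS.

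Olfml3 had the highest estimate in all 4 populations. In WT MG it lay at 264, 479 and 334 CPM after CTL and 806, 651 and 658 CPM after BLZ945, and the groups did not overlap (log2 fold change 0.98 ± 0.20 (SE), adjusted p = 0.213). Its 95% interval was 0.56 to 1.41, and without CTL mouse 4 it was called (log2 fold change 1.25, adjusted p = 0.00749). Its estimates were 0.32 (interval -0.12 to 0.77) in Ccr2-/- MG, 1.30 (0.03 to 2.58) in WT sdCAMs and 0.74 (0.05 to 1.43) in Ccr2-/- sdCAMs. Fcrl2 had the lowest estimate in MG, at 1322, 1352 and 1493 CPM after CTL and 1374, 871 and 969.9 CPM after BLZ945 in WT (log2 fold change -0.36 ± 0.17 (SE), adjusted p = 0.757), with overlapping groups. In Ccr2-/- MG it lay at 2688, 2436 and 2295 CPM and 1526, 1439.9 and 1799.7 CPM, without overlap (log2 fold change -0.64 ± 0.12 (SE), adjusted p = 0.166). P2ry12 had 0.00 (interval -0.57 to 0.57) in WT MG and -0.40 (-0.73 to -0.08) in Ccr2-/- MG. Over the 9 genes the interval bounds reached from -0.91 to 0.77 in Ccr2-/- MG and from -0.73 to 1.41 in WT MG. They were wider in WT sdCAMs, from -1.70 to 2.58 on the log2 scale, and reached -0.41 to 1.43 in Ccr2-/- sdCAMs. The WT sdCAM groups also differed in Saa3 and in sums of marker genes. Saa3 took 2.39, 1.79 and 21% of counts in BLZ945 mice 8, 11 and 12, against 23 to 35.8% after CTL. The neutrophil sum was 55.1, 57.5 and 999 CPM in these mice, against 360 to 3281 CPM, and the sdCAM sum 6194, 4071 and 14965 CPM, against 12349 to 26657 CPM. Mouse 12 was thus nearer to the CTL mice in these measures than mice 8 and 11. TMM factors, by which CPM are divided, were 1.209, 1.275 and 0.3687 in mice 8, 11 and 12, against 0.344 to 0.4943 after CTL. A lower factor gives a higher CPM for the same share of counts, so the scaled sums of these libraries also carry the factor. The part of this in the result was not tested. The sdCAM library of mouse 12 was also the only one of the BLZ945 group with the IEG mark, which all CTL sdCAM libraries carried. With the mark as covariate 0 of the 9 genes were called, as were 0% of all genes.

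**Figure D4:**
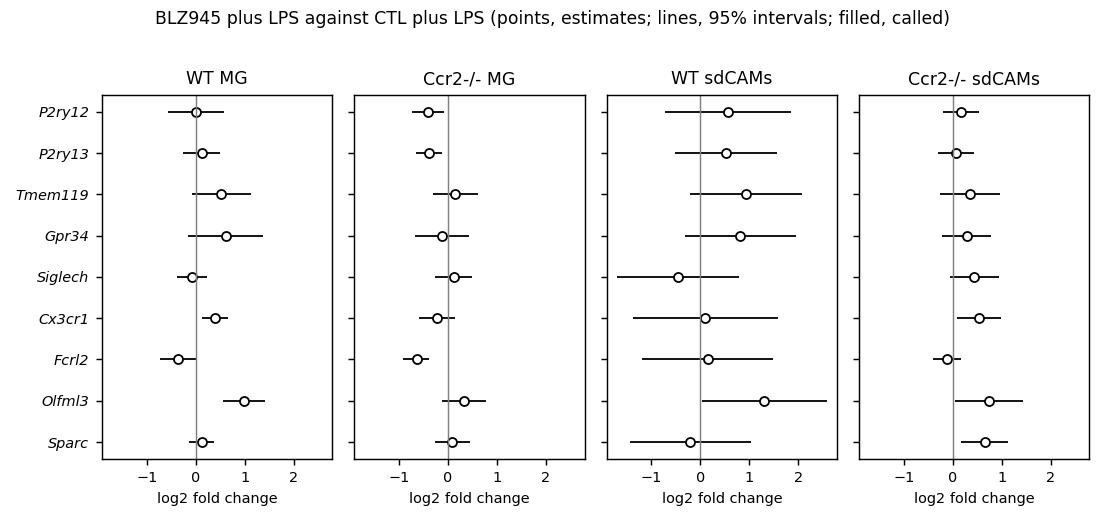
Log2 fold change of the 9 genes in BLZ945 plus LPS against CTL plus LPS in 4 populations, with 95% intervals as lines. No point is filled, as no gene was called, and Olfml3 lies farthest to the right in each panel, at 0.98 in WT MG.

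MG and sdCAMs of the same mice were compared next. Without LPS, 6 of the 9 genes were called lower in WT sdCAMs than in WT MG (P2ry12, P2ry13, Gpr34, Tmem119, Olfml3 and Sparc), against 5.2% of 13136 genes tested, with a median log2 fold change of -1.35 (0.03 for all genes). In Ccr2-/- mice it was 8 of 9, all but Fcrl2, against 6.43% of 12890 genes, with a median of -2.73 (0.00 for all genes). With the mouse as a block, the WT count was 5, since Sparc was lost (adjusted p = 0.0557). Leaving out any 1 of the 6 libraries gave 4 or 5 (1.77 to 8.08% of all genes). Gpr34 was lost each time (adjusted p = 0.0531 to 0.116) and with median-of-ratios scaling (adjusted p = 0.0519), and Sparc without sdCAMs of mouse 9 or MG of any mouse (adjusted p = 0.0523 to 0.0766).

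Within a mouse, the level in sdCAMs as a share of the MG level varied widely among the 9 genes. In Ccr2-/- mice after PBS it was 4.69 to 7.59% for Tmem119, 5.42 to 8.00% for Sparc, 6.00 to 10.4% for Olfml3 and 8.46 to 12.2% for P2ry12. It was 9.57 to 18.9% for Siglech, 15.9 to 20.4% for Gpr34, 29.2 to 33.9% for P2ry13 and 25.8 to 33.7% for Cx3cr1, but 100.4 to 110.1% for Fcrl2. Of the 5 microglial genes outside the 9, Sall1, Slc2a5 and Adgrg1 had shares as low as the lowest of the 9, Crybb1 lay near Gpr34, and Ltc4s, like Fcrl2, near the level of MG. Tmem119 lay at 4846, 5587 and 5269 CPM in MG and 245, 262 and 400.1 CPM in sdCAMs (17.4-fold lower, log2 fold change -4.12 ± 0.32 (SE), adjusted p = 1e-08). Fcrl2 did not differ by the test (log2 fold change 0.08 ± 0.13 (SE), adjusted p = 0.727, 95% interval -0.19 to 0.36).

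In WT mice after PBS the shares were higher, from 16 to 22.2% for Tmem119 and 12.7 to 36.1% for P2ry12 to 59.8 to 81.3% for Fcrl2 and 40 to 87.9% for Cx3cr1, and Sall1 lay at 24.6 to 37.6%. Cx3cr1 (-0.56, adjusted p = 0.363), Siglech (-0.83, adjusted p = 0.136) and Fcrl2 (-0.46, adjusted p = 0.452) did not pass the test. The genotypes differed in Sall1, Slc2a5, Adgrg1 and Crybb1 of their sdCAM libraries, as given above, and the part of that signal in these shares was not tested.

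**Figure D5:**
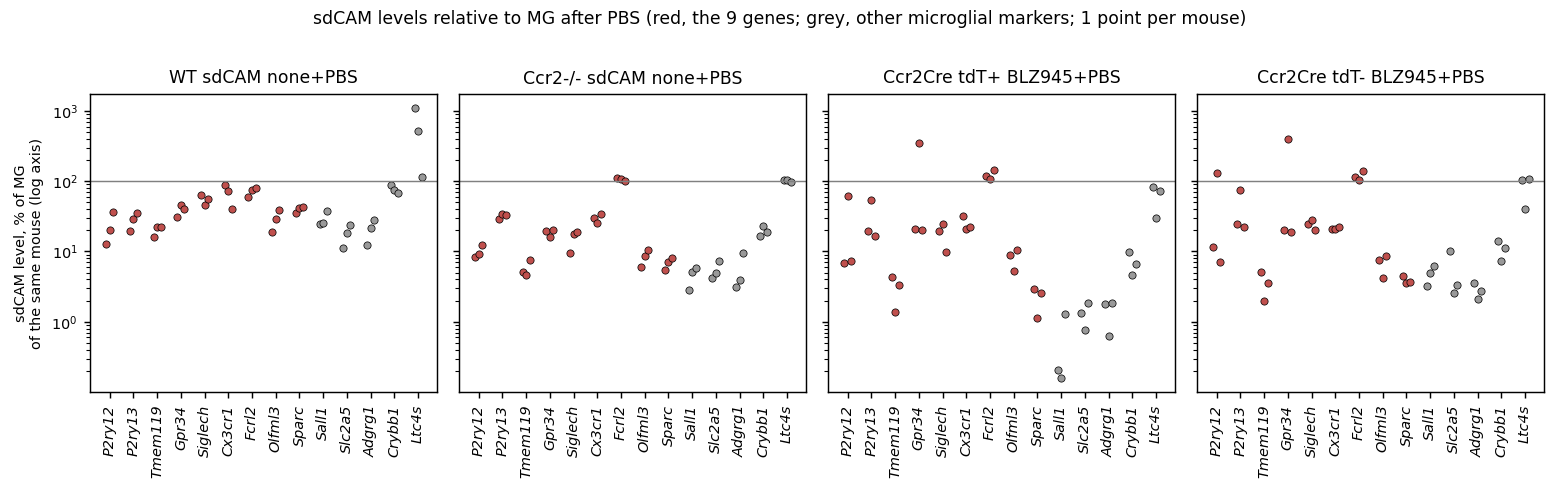
Level of the 9 genes (red) and of 5 other microglial genes (grey) in sdCAMs after PBS as a percentage of the level in MG of the same mouse, on a log axis with a line at 100%, with 1 point per mouse. Fcrl2 sits at the line in Ccr2-/- sdCAMs (100.4 to 110.1%), as does Ltc4s (96.8 to 105%), while Tmem119 and Sparc sit near Sall1, Slc2a5 and Adgrg1, and the high points of P2ry12, P2ry13 and Gpr34 in reporter mice are those of mouse 175, whose MG were low for these genes.

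After LPS more of the 9 genes were called. In WT mice, 8 of 9 were called lower in sdCAMs after CTL and LPS (all but Siglech), against 16.3% of genes, and 8 of 9 after BLZ945 and LPS (again all but Siglech), against 5.84%. Cx3cr1 was not called after CTL without sdCAMs of mouse 4 (adjusted p = 0.0633) or MG of mouse 6 (adjusted p = 0.0731), nor after BLZ945 without MG of any mouse (adjusted p = 0.0543 to 0.066). The latter count was 5 without MG of mouse 8, 7 with the mouse as a block (Cx3cr1 lost, adjusted p = 0.0544), and 4 when only these 6 libraries were fitted. In Ccr2-/- mice all 9 were called lower after CTL and LPS, against 9.08% of genes, and all 9 after BLZ945 and LPS, against 7.53%. The log2 fold changes ranged from -3.95 for Cx3cr1 to -2.69 for Fcrl2 after CTL, and from -3.22 for Sparc to -2.15 for Fcrl2 after BLZ945. Fcrl2 in Ccr2-/- sdCAMs was at 11.7 to 17.7% of MG after CTL and LPS and Cx3cr1 at 5.64 to 7.74%.

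In reporter mice after PBS, 5 of the 9 genes were called lower in tdT+ sdCAMs than in MG (P2ry12, P2ry13, Tmem119, Olfml3 and Sparc), against 3.18% of 13309 genes, and 4 in tdT- sdCAMs (P2ry12, Tmem119, Olfml3 and Sparc), against 1.77%. The largest differences were those of Sparc and Tmem119. Sparc lay at 4566, 5846 and 4998 CPM in MG, 132, 66.4 and 128 CPM in tdT+ and 202, 210.1 and 186 CPM in tdT- sdCAMs (-5.58 ± 0.89, adjusted p = 0.000366, and -4.70 ± 0.85, adjusted p = 0.00141). Tmem119 had -5.33 ± 0.74 (adjusted p = 7.91e-05) and -5.04 ± 0.73 (adjusted p = 0.000137). Fcrl2 lay at 2652, 4038 and 2601 CPM in MG, 3189, 4376 and 3704 CPM in tdT+ and 3039, 4242 and 3657 CPM in tdT- sdCAMs, without passing the test (0.26, interval -0.96 to 1.47, and 0.22, interval -1.0 to 1.43). The level of Fcrl2 in sdCAMs was at least as high as in MG of the same mouse in all 3 mice (108 to 142% in tdT+ and 105 to 141% in tdT- sdCAMs). Without MG of mouse 175, 6 genes were called lower in tdT+ (2.49% of all genes) and 6 in tdT- sdCAMs (1.42%), with Gpr34 added in both and P2ry13 in tdT- sdCAMs. Without tdT+ sdCAMs of mouse 174 or of mouse 175, 2 were called in tdT+ sdCAMs. Leaving out 1 library gave 740 to 969 of all genes called in either direction there, against 1135. P2ry13 in tdT+ sdCAMs was also lost without those of mouse 177 (adjusted p = 0.0672) or MG of mouse 177 (adjusted p = 0.0775). P2ry12 in tdT- sdCAMs was lost without any 1 library other than MG of mouse 175 (adjusted p = 0.0905 to 0.15). With the mouse as a block the count in tdT+ sdCAMs was 7, with Siglech (adjusted p = 0.0306) and Cx3cr1 (adjusted p = 0.0483) added. The block called 7.04% of all genes there in either direction, against 8.53% in the reported fit. In tdT- sdCAMs the block removed P2ry12 (adjusted p = 0.0697) and added Cx3cr1 (adjusted p = 0.0346).

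After LPS, all 9 genes were called lower in tdT- sdCAMs than in MG, against 6.29% of genes, with estimates from -5.26 for Olfml3 to -2.91 for Gpr34. With the mouse as a block, Gpr34 was lost (adjusted p = 0.0625), as it was without MG or tdT- sdCAMs of mouse 5 or 7 (adjusted p = 0.0575 to 0.102). In tdT+ sdCAMs 0 of the 9 were called by edgeR, against 0.00751% of genes called lower. Of the 9, 6 had an unadjusted p under 0.05, as did 12.6% of all genes. DESeq2 called 1, with 4.35% of all genes called in either direction, against 1.5% by edgeR. The estimates ranged from -2.47 (adjusted p = 0.0663) to -1.0 (adjusted p = 0.457). Without tdT+ sdCAMs of mouse 5, all 9 were called lower (1.55% of all genes), with -4.55 ± 0.58 for Sparc (adjusted p = 7.29e-05) and -2.30 ± 0.45 for P2ry13 (adjusted p = 0.00423). In mouse 5 the levels in tdT+ sdCAMs were 71.3 to 93.9% of those in MG for the 9 genes.

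Whether the LPS response differed between the populations was tested as an interaction of cell type with LPS. In Ccr2-/- mice 3 of the 9 genes fell more in sdCAMs than in MG (Fcrl2, Cx3cr1 and P2ry13), against 4% of all genes called lower. The difference between the log2 fold changes was -2.77 ± 0.19 for Fcrl2 (adjusted p = 3.8e-08), -2.19 ± 0.29 for Cx3cr1 (adjusted p = 6.87e-05) and -1.16 ± 0.20 for P2ry13 (adjusted p = 0.000747). Fcrl2 had thus -3.54 in sdCAMs and -0.74 in MG, Cx3cr1 -3.46 and -1.23, and P2ry13 -2.39 and -1.19. All 3 remained called with the mouse as a block and without any 1 library. For the other 6 genes the interaction was -0.52 to 0.71 with adjusted p of 0.33 or more, so that a difference between populations was not detected. P2ry12, which fell by similar amounts in both, had 0.06 (interval -0.44 to 0.55).

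In WT mice edgeR called 0 of the 9 genes in the interaction, against 0.891% of all genes called lower. An unadjusted p under 0.05 was reached by 1 of the 9 and by 17.8% of all genes. The 1 was Fcrl2, with -1.75 ± 0.57 (adjusted p = 0.127), and DESeq2 called it (-1.58, adjusted p = 0.0398). DESeq2 called 6.49% of all genes in either direction, against 1.32% by edgeR. The 95% interval was -2.96 to -0.54 for Fcrl2, -1.97 to 0.48 for Cx3cr1 and -1.90 to 0.09 for P2ry13, which holds the estimate of Ccr2-/- mice for Fcrl2 and P2ry13 but not for Cx3cr1. A difference between genotypes was not tested.

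The rest of the homeostatic programme was followed in 20 other genes. In MG after LPS, 10 of 20 were called lower in WT and 12 in Ccr2-/- mice, against 7.65 and 8.89% of all genes, with medians of -1.0 and -1.13 (0.02 and 0.00 for all genes). Slc2a5, a fructose transporter, had -3.75 and -4.33, a change of the size of Gpr34. Sall1 had -1.82 (adjusted p = 6.47e-05) and -2.08 (adjusted p = 1.72e-05). Mertk, a receptor for the uptake of dying cells, had -0.32 and -0.45 and was called in neither. In sdCAMs after LPS, 8 of 20 were called lower in WT and 15 in Ccr2-/- mice, against 2.62 and 10.6%. In reporter mice 3 were called lower in MG, 11 in tdT- sdCAMs and 6 in tdT+ sdCAMs, against 0.423, 12 and 5.82%. In tdT+ sdCAMs 3 were called higher (7.54% of all genes), Sall1 among them (4.19, adjusted p = 0.0312), with mouse 5 in the group. Sall1 lay at 116 CPM in mouse 5, against 3.27 and 12.6 CPM in LPS mice 1 and 7. After BLZ945, edgeR and DESeq2 called 0 of 20 in each of the 4 comparisons, where 2 to 5 (edgeR) and 2 to 6 (DESeq2) had an unadjusted p under 0.05, as did 6.58 to 8.36% and 7.28 to 9.56% of all genes.

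Between MG and sdCAMs after PBS, 9 of the 20 genes were called lower in WT and 13 in Ccr2-/- sdCAMs, against 5.2 and 6.43% of all genes. After CTL and LPS, 12 of 20 were called lower (16.3%) and 3 higher (19.1%) in WT, and all 20 were called lower in Ccr2-/- sdCAMs (9.08%). In the interaction of Ccr2-/- mice, 7 of the 20 fell more in sdCAMs than in MG (4% of all genes), among them Ltc4s, a leukotriene synthase (-3.84, adjusted p = 2.44e-05), which like Fcrl2 did not differ between sdCAMs and MG by the test after PBS (0.01, adjusted p = 0.993). Mef2c, a transcription factor, had -1.93 (adjusted p = 2.96e-05) and Csf1r, the receptor inhibited by BLZ945, -1.10 (adjusted p = 0.000782).

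Across the 18 group means, which share mice between populations, the 9 genes followed each other to different degrees. Pearson's r of each gene with the mean of the other 8 was 0.971 for Olfml3, 0.968 for Siglech, 0.967 for P2ry12, 0.96 for P2ry13 and 0.952 for Cx3cr1. It was 0.894 for Gpr34, 0.893 for Tmem119, 0.818 for Fcrl2 and 0.731 for Sparc. The closest pair was Siglech and Cx3cr1 (r = 0.967), and the most distant Fcrl2 and Sparc (r = 0.396). The values differed within populations. Fcrl2 and Sparc had 0.87 over the 8 MG groups and -0.143 over the 10 sdCAM groups, and the closest pair was P2ry12 and Gpr34 in MG (0.994) and P2ry12 and P2ry13 in sdCAMs (0.961). Among 10900 genes with at least 10 CPM in a group, those most like the mean of the 9 were Rtn4rl1 (r = 0.979), Lair1 (0.972), Gpr155 (0.97), Gmpr (0.968) and Adgrg1 (0.967). Of these, Lair1 encodes an inhibitory receptor for collagen and Adgrg1 an adhesion G protein-coupled receptor of microglia. The values describe likeness over 18 points only, and the means include the reporter libraries that stood apart.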

How the data were processed

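MG and sdCAMs were sorted by FACS, and per the study's methods sdCAMs were gated on CD206, the product of Mrc1, which is none of the 9 genes. cDNA was made by the authors with SMARTer and Nextera XT kits, which amplify very small RNA inputs, and sequenced as single reads, which per the labels were aligned with STAR 2.7.11a and counted with featureCounts 2.0.8. The deposited values are whole-number counts per gene symbol in 3 tables of 18 columns, without normalization, and 0 columns lacked a sample. The genome build and the strand setting could not be settled from the sources used here, and reads of antisense partners may be mixed. Without molecular identifiers, precision from depth (1705930 to 11330781 counts) covers counting error only.

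Counts were filtered with filterByExpr, scaled by TMM and tested with the quasi-likelihood F-test of edgeR 4.0.16 (limma 3.58.1, R 4.3.3), two-sided, with Benjamini-Hochberg adjustment over all genes. Genes were called at an adjusted p under 0.05 when they also changed by more than 1 on the log2 scale. LPS and BLZ945 were fitted over all libraries of a cell type within WT or Ccr2-/- mice and over MG or sdCAMs of reporter mice, and cell type and its interaction with LPS over all 18 libraries of a genotype. Intervals are 95%. The scripts were tested on simulated data.

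The named genes were the 9 genes, examples from the 20 other homeostatic genes, and the 5 genes most like the 9 over the groups. Members and lists were chosen with earlier results of these data known. Levels per kb used the union of all GENCODE exons of a gene as its length, and promoters came from RefSeq (GRCm38.p6).

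Replicates are mice, with MG and sdCAMs of a number from the same mouse by library name. Deviations of same-numbered libraries from their group means correlated by 0.007 to 0.135 in WT, -0.047 to 0.211 in Ccr2-/- and -0.025 to 0.146 in reporter mice. A mouse block was therefore run as an alternative, beside DESeq2 1.42.0, its scaling in edgeR, no fold limit, the low-count rule of the study, narrower fits, the label's IEG mark (6 WT sdCAM libraries) as covariate and leaving out each library. Leaving out the MG libraries of mice 1 and 175 together, and mouse 5 with exchanged columns, was added after seeing the data. No pair of libraries within a group differed by less than sampling noise, and pairs across groups were not examined. In the Ccr2-/- LPS libraries, titles contradicted the cell type field and the library name, and the last 2 were followed.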

Additional observations from a re-analysis of the deposited data

Results flagged for a closer look

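The response to LPS of 3 of the 9 genes differed between sdCAMs and MG of Ccr2-/- mice, by the interaction term of edgeR. The log2 fold change in sdCAMs minus that in MG was -2.77 for Fcrl2, -2.19 for Cx3cr1 and -1.16 for P2ry13. Over 17 alternatives the term was -2.86 to -2.63 for Fcrl2 (adjusted p up to 3.98e-06), -2.39 to -2.08 for Cx3cr1 (up to 0.000388) and -1.29 to -1.05 for P2ry13 (up to 0.00333). In WT mice edgeR called 0 of these 3 (1.32% of all genes in either direction) and DESeq2 called 1, Fcrl2 (6.49%).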

How the results depend on the processing

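Counts of the 9 genes called, in either direction, are given here for the comparisons that moved, over 23 comparisons. Beside them, in brackets, stands the share or number of all genes called in either direction. Of 147 counts under alternatives other than leaving out 1 library, 138 were within 1.5 times the count reported, 2 were lower and 7 were higher. For reporter MG after LPS (2 called, 1.08%), the study's low-count rule gave 1 (0.728%) and DESeq2 gave 8 (7.85%). Leaving out MG of mice 1 and 175 gave 8 (11.1%), and leaving out 1 library gave 0 to 6 (0 to 403 genes). For tdT+ sdCAMs after LPS (2 called lower and 1 higher, 13.4%), exchanged columns without mouse 5 gave 7 (11.2%). Leaving out 1 library gave 2 to 7 (966 to 1738 genes). For tdT+ sdCAMs against MG, after LPS (0 called, 1.5%), the study's low-count rule gave 1 (1.16%) and DESeq2 gave 1 (4.35%). Exchanged columns without mouse 5 gave 9 (6.27%), and leaving out 1 library gave 0 to 9 (109 to 562 genes). After PBS (5 called, 8.53%), leaving out 1 library gave 2 to 6 (740 to 969 genes). For WT sdCAMs after LPS (6 called, 6.32%), DESeq2 gave 8 (15.8%) and the IEG mark as covariate gave 8 (10.9%). Leaving out 1 library gave 1 to 3 (137 to 293 genes). For BLZ945 in WT MG (0 called, 0.0763%), leaving out 1 library gave 0 to 1 (0 to 13 genes). For WT cell types after BLZ945 and LPS (8 called, 17.7%), fitting only the groups compared gave 4 (6.86%). Leaving out 1 library gave 5 to 8 (757 to 2842 genes). In the WT interaction (0 called, 1.32%) DESeq2 gave 1 (6.49%). The cause of these moves was not tested, but leaving out a library, or fitting fewer groups, leaves fewer samples. No called fold change reversed its sign.

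With the mouse as a replicate block, the counts for WT after PBS, CTL and BLZ945 were 5, 8 and 7, for Ccr2-/- 8, 9 and 9, for tdT+ sdCAMs 7 after PBS and 0 after LPS, and for tdT- sdCAMs 4 and 8. The interaction gave 0 in WT and 3 in Ccr2-/- mice. Of 108 tests of single genes, 101 kept their call, 4 lost and 3 gained it, and these are named beside the results. Depth limits single values in sdCAMs, where the lowest count of the 9 genes, 4, was found in tdT- sdCAMs of mouse 1 after LPS (Olfml3).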
